A study of Mus musculus with 25 samples.

Results

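The 6 genes described here, Stat2, Stat3, Stat4, Stat5a, Stat5b and Stat6, belong to the signal transducer and activator of transcription (STAT) family. They were taken by symbol, and each was found once among the 18668 genes counted in mouse liver hepatocytes and once among the 51912 genes counted in immune cells. Their messenger RNA was measured by bulk RNA sequencing in 25 libraries, 13 from hepatocytes and 12 from immune cells, all from C57BL/6J 129SV mice. The study, by its title, concerns how macrophages act on hepatocytes after injury through IL-6, its signalling receptor gp130 and STAT3.

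Hepatocytes came from 5 groups. In 2 wild-type groups a plasmid was delivered by hydrodynamic tail vein injection 1 week before harvest: a GFP plasmid (2 libraries, "GFP") or an IL-6 plasmid at 5 ug/mL (3 libraries, "IL-6"). In the other 3 groups the mice carried the Stat3_floxed allele and had received an adeno-associated virus with the TBG promoter, which is active in hepatocytes, 2 weeks earlier. With Cre under that promoter and the IL-6 plasmid for 1 week they made up "IL-6 STAT3KO" (3 libraries). With the GFP virus and 1 week of DDC diet, which injures bile ducts and hepatocytes, they made up "DDC" (2 libraries), and with the Cre virus and the same diet "DDC STAT3KO" (3 libraries). IL-6 STAT3KO and IL-6 therefore differed in genotype and virus together, and DDC and GFP in genotype, virus, plasmid and diet together, and the parts of these differences cannot be told apart. Immune cells came from wild-type mice and were sorted as macrophages, T cells, neutrophils, Ly6C-low and Ly6C-high monocytes on DDC diet and macrophages on normal diet, with 2 libraries each. The labels give no age and do not say whether replicates were separate animals, so p-values measure no more than the spread from library to library, part of which may be technical.

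STAT proteins wait in the cytoplasm until a cytokine receptor is engaged. Janus kinases bound to the receptor then phosphorylate them, and they pair, enter the nucleus and switch on genes, among them the SOCS genes whose products shut the receptors off. In the liver, STAT3 is the main carrier of IL-6 signals through gp130 and drives the acute-phase response. STAT5A and STAT5B carry the signal of growth hormone. STAT2 pairs with IRF9 in the complex ISGF3 that answers type I interferon. STAT6 answers IL-4 and IL-13, and STAT4 answers IL-12, chiefly in lymphocytes. Because STAT activity is set by phosphorylation, an RNA level is not a measure of it. In bulk samples, fewer cells of a type and less RNA per cell cannot be told apart.

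The genes lie in 3 places of the GRCm38 genome. Stat3 (ENSMUSG00000004040, chr11:100885098-100939540, minus strand), Stat5a (ENSMUSG00000004043, chr11:100859351-100885169, plus strand) and Stat5b (ENSMUSG00000020919, chr11:100780731-100850724, minus strand) are neighbours. Stat2 (ENSMUSG00000040033, chr10:128270559-128292849, plus strand) and Stat6 (ENSMUSG00000002147, chr10:127642986-127660957, plus strand) lie 609601 bases apart, and Stat4 (ENSMUSG00000062939, chr1:51987148-52107189, plus strand) is on another chromosome. Stat3 and Stat5a share 72 exonic bases at their 3′ ends on opposite strands. Stat5a and Stat5b are close paralogs, so reads could be split between them, and the strand setting of the counting is not given in the sources used here.

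The 250 bases before the RefSeq transcription starts were searched on both strands for 3 motifs: the GAS element TTCNNNGAA that STAT dimers bind, GAAANNGAAA, which resembles the interferon-stimulated response element of ISGF3, and TTCNNNNGAA, the wider spacing favoured by STAT6. The windows of Stat2 and Stat3 are shown because the hepatocyte results turn on these genes and their targets. Matches are in capitals (RefSeq, GRCm38.p6), and the windows are chr10:128270248-128270497 on the plus strand and chr11:100939541-100939790 on the minus strand, written 5′ to 3′.
Stat2: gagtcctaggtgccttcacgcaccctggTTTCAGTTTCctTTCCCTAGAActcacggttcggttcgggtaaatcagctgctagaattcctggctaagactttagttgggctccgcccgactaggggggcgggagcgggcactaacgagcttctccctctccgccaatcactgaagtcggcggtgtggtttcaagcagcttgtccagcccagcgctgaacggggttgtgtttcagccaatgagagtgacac
Stat3: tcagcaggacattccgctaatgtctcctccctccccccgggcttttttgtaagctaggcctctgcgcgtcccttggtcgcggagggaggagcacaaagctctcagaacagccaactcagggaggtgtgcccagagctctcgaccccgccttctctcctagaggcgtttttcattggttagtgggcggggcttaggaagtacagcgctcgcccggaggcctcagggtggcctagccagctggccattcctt
The Stat2 window held TTTCAGTTTC, a match to GAAANNGAAA on the other strand, 222 to 213 bases before the start, and TTCCCTAGAA, a match to TTCNNNNGAA, 210 to 201 bases before it. A second start of Stat4 held GAAAGTGAAA 97 to 88 bases before it. None of the 9 windows of the 6 genes held TTCNNNGAA. Of 32851 promoter windows of the same length, 7.02% held TTCNNNGAA, 2.98% GAAANNGAAA and 5.85% TTCNNNNGAA. A match is a description of the sequence and not a binding site.

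Library totals were 13625040 to 18428988 counts for hepatocytes and 3817794 to 12945663 for immune cells, the lowest being Neutrophil replicate 2. Levels are given as CPM, each count scaled to the same library total after TMM scaling, and differences as log2 fold changes from edgeR's quasi-likelihood test with Benjamini-Hochberg adjustment over all genes of a table (14339 tested for hepatocytes, 27759 for immune cells), called at an adjusted p under 0.05. Some libraries stood apart. IL-6 replicate 3 held 350.7 CPM of Il6 where the 2 other IL-6 libraries held 4.89 and 3.20. The IL-6 STAT3KO libraries held 0.559 to 1.05. In IL-6 replicate 3 the summed level of 10 hepatocyte markers was 28900 CPM against 57100 and 116100. Among these markers, over the IL-6 libraries, Alb ran from 6384 to 84110 CPM, Apoa1 from 5675 to 15330 and Hnf4a from 727 to 852. In DDC STAT3KO replicate 3 the 10 macrophage markers summed to 60.8 CPM against 356 and 455. The libraries labelled T cells had the highest summed level of 10 T cell markers, 366 to 382 CPM against at most 127.6 in any other immune library, with Cd3d at 68.7 to 80.1, Cd3g at 67.9 to 89.75 and Cd3e at 0.241 to 1.23. In the same libraries macrophage and Kupffer cell markers summed to 7362 to 13080 and hepatocyte markers to 2784 to 4564 CPM. Neutrophil markers, at 12840 to 32870 CPM in the libraries so labelled and at most 411 elsewhere, and macrophage markers, at 48160 to 57010 in DDC macrophages, followed their labels. The sum of 8 monocyte markers did not set the monocytes apart. It was 3600 to 4906 CPM in Ly6C-high, 2507 to 3142 in Ly6C-low and 3130 to 4066 in DDC macrophage libraries. Among the 8, Csf1r was highest in DDC macrophages, at 2206 to 2898 CPM. Ccr2 and Ace did set the monocytes apart. Ccr2 was at 906 to 1647 CPM in Ly6C-high and 815 to 866 in Ly6C-low libraries, against 74.0 to 134 in DDC macrophages and at most 472 in any other group. Ace was at 119 to 141 and 64.9 to 82.9, against 2.19 to 2.95 in DDC macrophages and at most 12.4 in any other group.

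Stat3, the transducer of IL-6 signals, was the member whose level differed most across the hepatocyte groups. It stood at 109 and 98.8 CPM in the GFP libraries, at 339.5, 351 and 424 with IL-6, and at 116, 96.0 and 116 in IL-6 STAT3KO. All 3 IL-6 libraries lay far above every other hepatocyte library, and the GFP and IL-6 STAT3KO ranges overlapped. Stat3 rose by 1.84 ± 0.24 (log2, SE, a 3.58-fold difference, edgeR adjusted p = 0.000281) with IL-6 against GFP. It was the 1 member called of the 5 tested, against 25.9% of all genes tested in this comparison. Without IL-6 replicate 3, the library with the highest Il6 level, Stat3 was still called, as it was under all 10 alternatives tried, with log2 values from 1.73 to 1.91.

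In IL-6 STAT3KO against IL-6, Stat3 fell by 1.77 ± 0.21 (log2, SE, adjusted p = 1e-04), to 0.294 of the IL-6 level, and was again the 1 member called of 5, with 26.4% of all genes called. Against GFP the IL-6 STAT3KO level differed by 0.07 ± 0.23, with a 95% interval from -0.42 to 0.57 (adjusted p = 0.903). No member was called in that comparison, where 3.12% of all genes were. The counts are summed over the whole gene and the deleted exons are not named, so reads from exons outside the deletion would be counted in the STAT3KO libraries. The comparisons among these 3 groups share their libraries and are not independent.

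**Figure D1:**
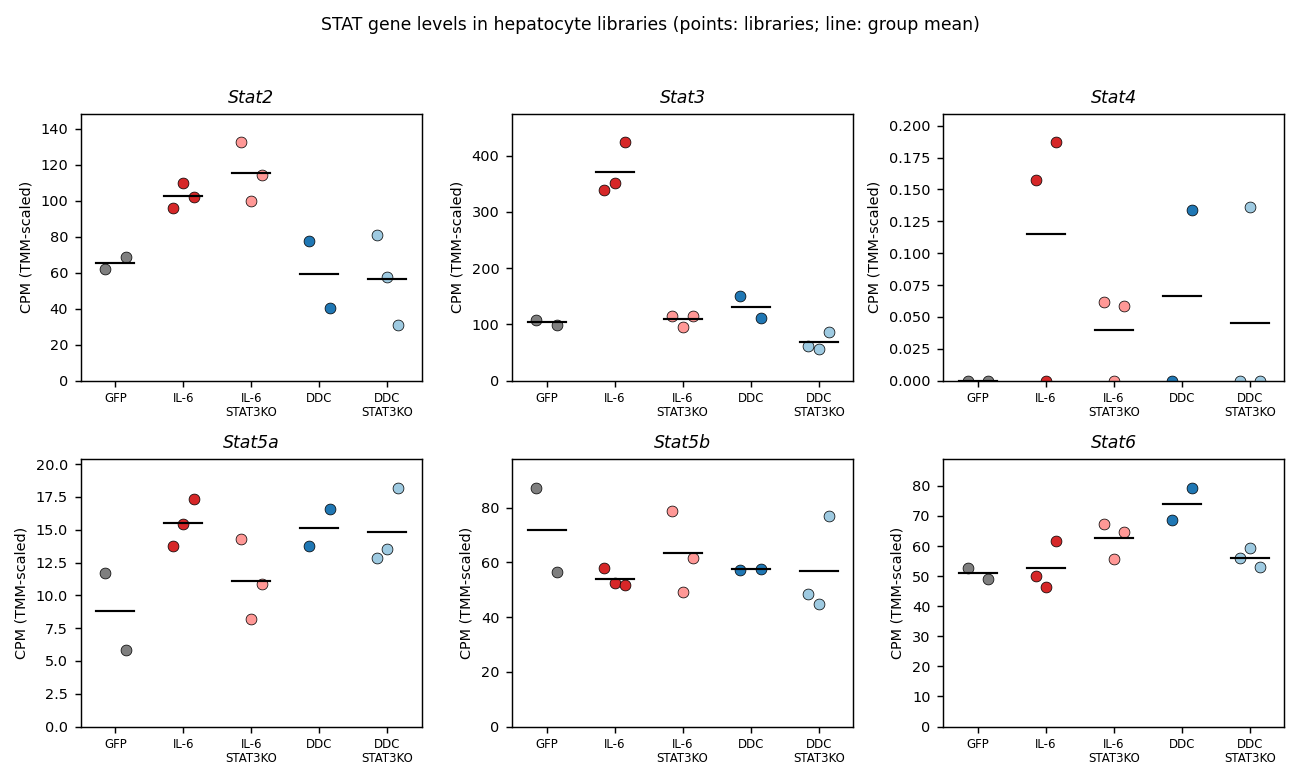
CPM of each of the 6 STAT genes (1 panel each, linear axis) in the 13 hepatocyte libraries, by group; points are libraries and lines are group means. The IL-6 libraries stand alone for Stat3 at 339.5 to 424 CPM, the other genes overlap far more between groups, and Stat4 is at or near 0.

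Stat2, the interferon-activated partner of IRF9, was at 62.1 and 68.8 CPM with GFP, at 96.0, 110.0 and 102 with IL-6, and at 132.5, 99.97 and 114 in IL-6 STAT3KO. Every library with the IL-6 plasmid was above both GFP libraries, with or without Stat3 deletion, and these 2 IL-6 groups overlapped. The difference from GFP was 0.65 ± 0.35 with IL-6 (log2, SE, 95% interval -0.11 to 1.41, adjusted p = 0.192) and 0.82 ± 0.35 in IL-6 STAT3KO (0.05 to 1.59, adjusted p = 0.23), so neither passed the test. A fit to only the groups compared called Stat2 in both, with adjusted p-values of 0.0177 and 0.0337 by edgeR. DDC libraries were at 77.6 and 40.6 CPM and DDC STAT3KO libraries at 80.7, 57.9 and 30.8, and these ranges covered the GFP values.

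The genes that ISGF3 switches on differed far more than Stat2 itself. Of 14 listed and tested, 14 rose in IL-6 STAT3KO against IL-6, with a median log2 difference of 4 against 0 over all genes (13% of all genes were called higher), and the count was 14 with each library left out in turn. Irf7, the interferon regulatory factor that amplifies the response, was at 7.50, 11.1 and 9.91 CPM with IL-6 and at 156, 153 and 222 in IL-6 STAT3KO, a rise of 4.22 ± 0.28 (log2, SE, adjusted p = 3.02e-06). Oasl2, an oligoadenylate synthetase-like antiviral gene, rose by 6.19 ± 0.56 (adjusted p = 1.79e-05), Ifit1, which binds viral RNA, by 5.89 ± 0.53 (adjusted p = 1.79e-05) and Rtp4 by 3.58 ± 0.30 (adjusted p = 1.26e-05). These 4 genes were higher in all 3 IL-6 STAT3KO libraries than in any other hepatocyte library. They were named for their small adjusted p in this comparison, so their order against the IL-6 libraries follows from that choice. The share of all genes with the same order was not counted.

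Against GFP, 12 of the 14 rose in IL-6 STAT3KO (median 3.43 against 0.02 over all genes, 2.26% of all genes called higher). Without GFP replicate 1 the count was 5. Irf9, the DNA-binding partner of STAT2 and a member of this list, was at 20.0 and 24.0 CPM with GFP, 20.6, 27.3 and 30.1 with IL-6, and 62.0, 56.6 and 58.1 in IL-6 STAT3KO. It rose by 1.42 ± 0.20 against GFP (log2, SE, adjusted p = 0.00196), a call lost without GFP replicate 1. With IL-6 against GFP, none of the 14 rose and 3 fell, Ifit1 by 2.16, Rsad2 by 2.16 and Ifit3 by 1.73 on the log2 scale (median -0.6, 12.2% of all genes called lower), a count that was 0 without GFP replicate 2. In DDC STAT3KO Irf9 was at 20.5, 27.7 and 26.5 CPM, next to 21.3 and 20.4 in DDC.

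Stat5a and Stat5b, the growth hormone transducers, had no called difference between hepatocyte groups. Stat5b was at 87.2 and 56.5 CPM with GFP, at 58.1, 52.4 and 51.6 with IL-6, and at 78.6, 49.3 and 61.7 in IL-6 STAT3KO. With IL-6 against GFP it differed by -0.41 ± 0.27 (log2, SE, 95% interval -0.99 to 0.17, adjusted p = 0.276), and the ranges of neighbouring groups overlapped in the whole order from GFP, the highest mean, to IL-6, the lowest. Stat5a was at 11.7 and 5.84 CPM with GFP and at 13.7, 15.5 and 17.3 with IL-6, so that both GFP libraries lay below the 3 IL-6 libraries. That difference was 0.82 ± 0.32 (adjusted p = 0.0761), and without GFP replicate 1, the higher of the GFP libraries, it was 1.41 with an adjusted p of 0.0337 by edgeR.

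The growth hormone receptor and several genes that growth hormone and STAT5 maintain in liver were much lower with IL-6. Ghr, the receptor, was at 1131 and 1000 CPM with GFP and at 139, 104 and 207 with IL-6, and fell by 2.83 on the log2 scale. Of 13 growth hormone and STAT5 target genes tested, 7 fell and none rose (median -2.22 against 0.04 over all genes, 12.2% of all genes called lower), and 4 fell without GFP replicate 1. Slco1a1, an organic anion transporter, was at 1199 and 950 CPM with GFP and at 3.55, 2.22 and 2.68 with IL-6, a fall of 8.58 ± 0.52 (log2, SE, adjusted p = 4.52e-06). Igfals, which stabilises circulating IGF1, fell by 2.22 ± 0.24 (adjusted p = 7.99e-05), and Cyp7b1, an oxysterol hydroxylase, by 2.22 ± 0.40 (adjusted p = 0.00185).

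In IL-6 STAT3KO against IL-6, 6 of the 13 rose and none fell (median 1.22, 13% of all genes called higher), and the count ran from 4 to 7 with 1 library left out, the 4 being without IL-6 replicate 1. Ghr was at 811, 612.5 and 730.1 CPM, a rise of 2.26 (log2), and Slco1a1 at 251, 131.5 and 473 CPM, a rise of 6.67 ± 0.48 (SE, adjusted p = 4.38e-06). Slco1a1 stayed below GFP, by -1.91 ± 0.41 (adjusted p = 0.0243), and was 1 of 2 of the 13 that fell in that comparison, where 0.865% of all genes were called lower. Without GFP replicate 1 none of the 13 was called against GFP.

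Stat6, the IL-4 and IL-13 transducer, had the smallest difference with IL-6 of the 5 members tested. It was at 52.9 and 49.2 CPM with GFP, 50.0, 46.3 and 61.7 with IL-6 and 67.45, 55.7 and 64.7 in IL-6 STAT3KO. The IL-6 libraries lay around the GFP values (0.05 ± 0.17, log2, SE, 95% interval -0.32 to 0.41, adjusted p = 0.869). With DDC it was at 68.5 and 79.3 CPM, above all GFP, IL-6 and DDC STAT3KO libraries, the last at 55.9, 59.3 and 53.2. The difference of DDC from GFP was 0.535 ± 0.18 (adjusted p = 0.0597 by edgeR, 0.0359 by DESeq2). Macrophage markers summed to 31.0 to 39.9 CPM in GFP and 305.5 to 499 in DDC libraries. They summed to 356, 455 and 60.8 CPM in the DDC STAT3KO libraries, where Stat6 was lower than in DDC. Their part in the differences was not tested.

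Il4ra and Il13ra1, the receptor chains that feed STAT6, rose with IL-6 although Stat6 was not called. Il4ra was at 25.2 and 16.5 CPM with GFP and at 56.9, 52.7 and 91.0 with IL-6, a rise of 1.68 ± 0.28 (log2, SE, adjusted p = 0.00119), and Il13ra1 rose by 1.99 ± 0.27 (adjusted p = 0.000363). Of 7 STAT6 target genes tested, 3 rose with IL-6 (median 1.52, 13.7% of all genes called higher). In IL-6 STAT3KO against IL-6, 3 fell (13.3% of all genes called lower). Klf4, a transcription factor, was at 0.704 and 0.756 CPM with GFP, 10.8, 8.56 and 10.5 with IL-6 and 0.557, 1.37 and 1.05 in IL-6 STAT3KO. Tgm2, a transglutaminase, rose by 2.57 ± 0.39 (adjusted p = 0.000726). Chil3 had 0 counts in GFP and 202 with IL-6, at least 45.2-fold higher against a floor of 3 counts over the group, with 113, 84 and 5 counts in the 3 IL-6 libraries. Neutrophil markers, 8 of 11 being in the table, summed to 20.0, 10.35 and 2.62 CPM in these libraries and to 0.128 and 0.206 with GFP, and their part was not tested.

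Stat4 was barely detected in hepatocytes. It had 13 counts in all 13 libraries together, at most 3 in any library and 0 in 7 of them, and it was left out of the tests by the filter on low counts. The limit that 3 counts set was 0.133 to 0.237 CPM per library, so differences below that were not detectable at this depth. None of the 8 STAT4 target genes listed was in the hepatocyte table.

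With DDC against GFP no member was called, against 18.7% of all genes tested. Stat3 was at 150.0 and 112 CPM in DDC libraries, both above the GFP values of 109 and 98.8, and the difference was 0.34 ± 0.25 (log2, SE, 95% interval -0.20 to 0.88, edgeR adjusted p = 0.358). Stat5a differed by 0.79 ± 0.34 (adjusted p = 0.123) and Stat5b by -0.32 ± 0.29 (adjusted p = 0.461). The STAT3 target genes were split: 5 of 14 rose (10.4% of all genes called higher) and 1 fell (8.29% called lower), with a median of 0.21. Osmr, the oncostatin M receptor, rose by 3.17 ± 0.55 (adjusted p = 0.00385), Lcn2, an acute-phase siderophore binder, by 5.05 ± 0.92 (adjusted p = 0.00477), and Pim1, a kinase named here after its values were seen, fell by 2.05 ± 0.40 (adjusted p = 0.00677). Without GFP replicate 2, 2 of the 14 rose and none fell.

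Growth hormone and STAT5 target genes fell with DDC as well, 6 of 13 (median -1.5), and 3 without DDC replicate 2. With DDC against GFP, 8.29% of all genes were called lower and 10.4% higher. Slco1a1 was at 44.7 and 34.7 CPM, a fall of 4.76 ± 0.52 (log2, SE, adjusted p = 0.000498), and Cyp7b1 fell by 3.29 ± 0.48 (adjusted p = 0.00166). Hsd3b5, a male-predominant steroid dehydrogenase, had 0 counts in the DDC libraries and 7271 in the GFP libraries, at least 3320-fold lower against a floor of 3 counts over the group. Of the ISGF3 genes 3 of 14 rose (median 0.43), Irf7 by 1.43, Ifih1, a sensor of viral RNA, by 0.78 and Oasl2 by 1.95, and none was called without GFP replicate 1.

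In DDC STAT3KO the Stat3 level was 62.0, 56.3 and 87.2 CPM, below both DDC libraries and both GFP libraries. The difference from DDC was -0.935 ± 0.22 (log2, SE, 95% interval -1.42 to -0.45), to 0.523 of the DDC level, with an unadjusted p of 0.00124 that had rank 12 among all genes. It was not called after adjustment by edgeR (adjusted p = 0.852) and was called by DESeq2 (adjusted p = 0.0136). No gene of the table was called by edgeR in this comparison (0%), 805 had an unadjusted p under 0.05, and DESeq2 called 19. The other tested members were near 0: Stat2 at -0.06, Stat5a at -0.03 and Stat5b at -0.02, while Stat6 was at -0.40 ± 0.165 (adjusted p = 0.852).

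**Figure D2:**
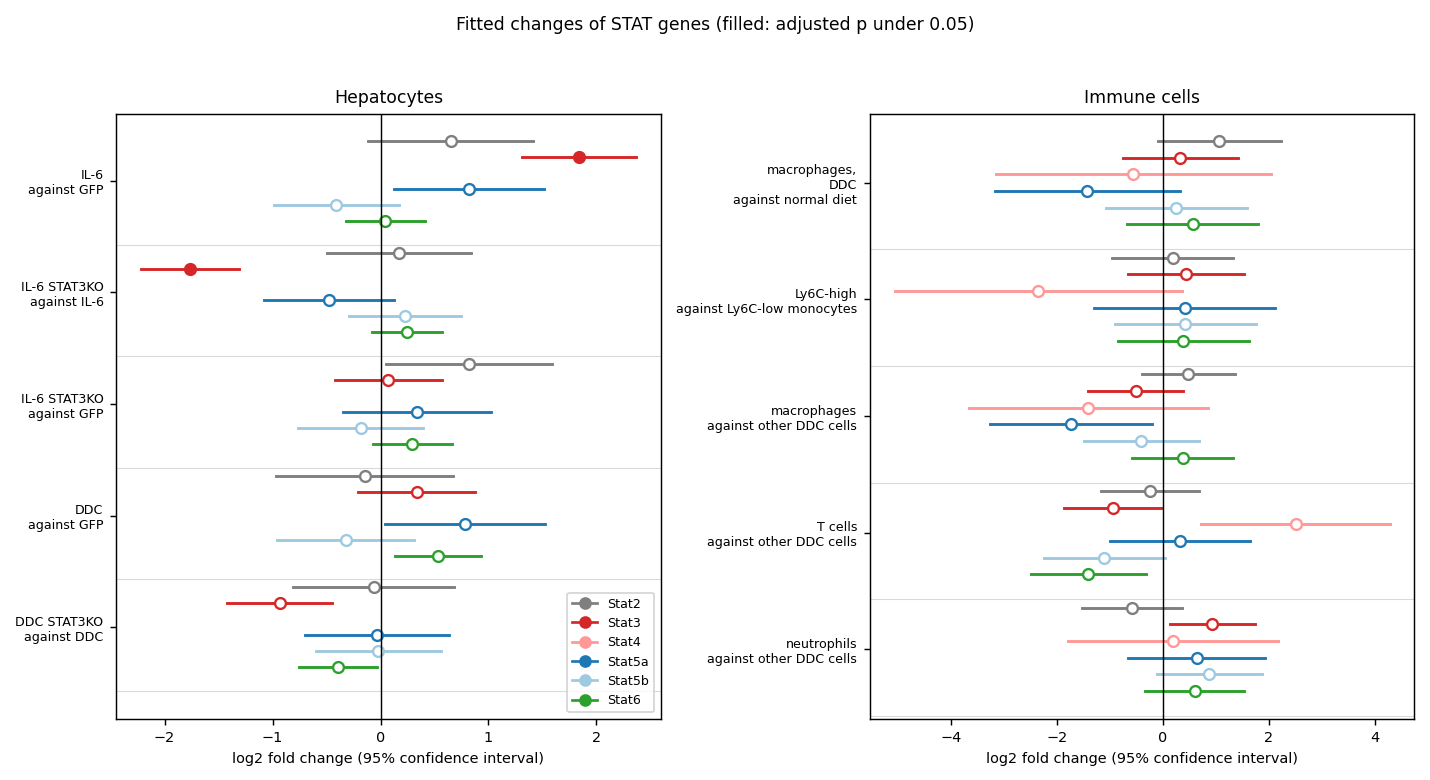
log2 fold change of each STAT gene with its 95% interval in the hepatocyte comparisons (left) and the immune comparisons (right); filled points have an adjusted p under 0.05. Stat3 is the only gene with filled points, at 1.84 for IL-6 against GFP and -1.77 for IL-6 STAT3KO against IL-6, and the intervals of the immune comparisons are wider.

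Whether the difference between STAT3KO and its control was another in the IL-6 than in the DDC setting was tested as an interaction. The controls were unlike: IL-6 mice were wild-type without a virus, and DDC mice carried the floxed allele and the GFP virus. A differing effect of the deletion cannot be told apart from this. No member was called, against 8.28% of all genes. The log2 difference of Stat3 was -1.77 in the IL-6 setting and -0.935 in the DDC setting. The difference between these was -0.83 ± 0.31 (SE, 95% interval -1.50 to -0.17, edgeR adjusted p = 0.119). For Stat6 it was 0.65 ± 0.22 (edgeR adjusted p = 0.0994), and 0.785 with an adjusted p of 0.0423 without IL-6 replicate 3. Among the lists, 12 of 14 ISGF3 genes (4.2% of all genes called higher) and 9 of 14 STAT3 target genes in the other direction (4.08% called lower) had a called interaction.

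Levels of different genes were compared per kilobase of exon, taking the union of all annotated exons of a gene. This length was 9527 bases for Stat3 and 4402 for Stat6, and the order of the genes depends on it. Which transcripts were expressed was not tested. In GFP hepatocytes 4 members were close, with Stat2, Stat3, Stat5b and Stat6 holding 20.4% to 30.7% each of the summed CPM per kilobase of the 6 genes, and Stat5a 1.86% to 3.20%. With IL-6, Stat3 held 47.1% to 50.8% of the sum. In IL-6 STAT3KO Stat2 held the largest share, 32.8% to 34.0%, and Stat3 18.4% to 20.7%. In DDC and DDC STAT3KO the Stat3 shares were 23.8% to 27.8% and 15.02% to 21.4%, and the Stat6 shares 27.5% to 36.5% and 28.2% to 34.4%. Stat5b exceeded Stat5a 3.84 to 12.4 times per kilobase in every hepatocyte library.

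Stat3 was the highest member per kilobase in 4 hepatocyte libraries, the 3 IL-6 libraries and DDC replicate 1, while Stat2 was highest in 5, Stat5b in 2 and Stat6 in 2. The ratio of Stat3 to Stat5b per kilobase was 0.725 to 1.02 with GFP, 3.40 to 4.77 with IL-6, 0.856 to 1.13 in IL-6 STAT3KO, 1.13 to 1.53 in DDC and 0.660 to 0.747 in DDC STAT3KO. The IL-6 libraries did not overlap any other group in this ratio, and DDC STAT3KO did not overlap DDC. In immune cells, counted and normalized in a separate table, Stat6 was the highest member per kilobase in 10 of 12 libraries and Stat3 in the other 2.

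**Figure D3:**
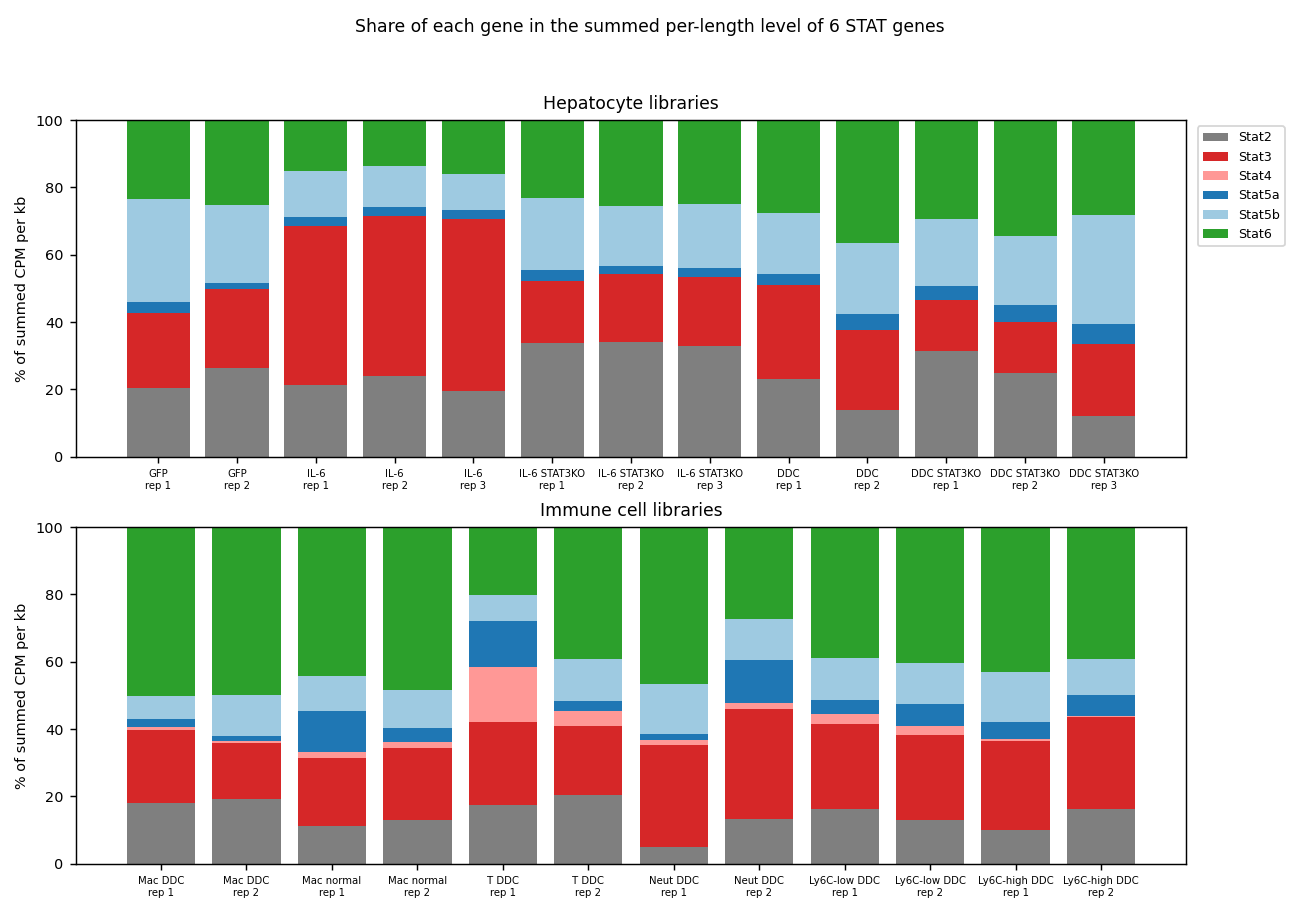
Share of each of the 6 STAT genes in their summed CPM per exon kilobase, as stacked bars from 0 to 100%, for each hepatocyte and each immune library. Stat3 holds 47.1% to 50.8% in the IL-6 hepatocyte libraries and Stat6 is the largest in 10 of 12 immune libraries.

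Among the receptors that lead to STAT3, 6 of 10 were not called with IL-6 against GFP. Il6ra, the IL-6 receptor, and Il6st, which encodes gp130, were among these (-0.60 ± 0.46, adjusted p = 0.367, and 0.28 ± 0.23, adjusted p = 0.381, edgeR). Of the 10, 3 rose and 1 fell, where 13.7% of all genes were called higher and 12.2% lower: Osmr rose by 5.62, Lepr, the leptin receptor, by 6.34 and Il10rb by 1.51, and Lifr, the receptor of leukaemia inhibitory factor, fell by 3.29 (log2). Lifr was at 623 and 467 CPM with GFP, at 61.2, 62.3 and 43.65 with IL-6 and at 363, 401 and 339 in IL-6 STAT3KO, where it rose by 2.72 against IL-6. Lepr and Osmr fell there by 4.87 and 4.81. With DDC, Lifr fell by 2.48, and Osmr, Il10rb (2.15) and Il22ra1 (3.48), the IL-22 receptor, rose.

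Of 8 tested receptors that lead to STAT5, 4 rose and 2 fell with IL-6 (13.7% of all genes called higher, 12.2% lower), and 1 rose without GFP replicate 1. Csf2rb2, Csf2ra and Il3ra, chains of the GM-CSF and IL-3 receptors, were among those that rose (3.72, 2.605 and 2.27, log2), and Ghr was 1 of those that fell. Prlr, the prolactin receptor, rose by 1.46 in IL-6 STAT3KO against IL-6. Of 5 genes in the list of interferon receptors and Irf9, 3 rose with IL-6, Ifngr2 by 1.36, Ifngr1 by 1.16 and Ifnar2 by 0.91, beside the same share of all genes, and 1 rose without GFP replicate 2. In IL-6 STAT3KO against IL-6, 4 of the 5 fell (13.3% of all genes called lower), and 2 without IL-6 replicate 3, while Irf9 rose by 1.18 ± 0.17 (SE, adjusted p = 0.000432).

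Of the 4 Janus kinases 1 was called with IL-6 against GFP, where 25.9% of all genes were. Jak3 rose by 2.63 ± 0.40 (log2, SE, edgeR adjusted p = 0.000733), from 4.42 and 11.8 CPM to 54.2, 52.6 and 43.8. It was at 10.2, 6.77 and 7.46 CPM in IL-6 STAT3KO. None of the 4 was called with DDC against GFP, where 18.7% of all genes were. Among the SOCS inhibitors, which feed back on the receptors, Socs3 followed Stat3: it was at 11.65 and 11.96 CPM with GFP, at 270.1, 292 and 216 with IL-6 and at 6.68, 4.53 and 3.965 in IL-6 STAT3KO. Socs3 rose by 4.46 ± 0.40 with IL-6 (adjusted p = 2.89e-05) and fell by 5.68 ± 0.36 in IL-6 STAT3KO against IL-6 (adjusted p = 2.16e-06).

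Socs1, an inhibitor of interferon signalling, did not follow Stat3. It was at 0.256 and 0.206 CPM with GFP, at 24.6, 29.9 and 15.8 with IL-6 and at 24.4, 8.26 and 31.8 in IL-6 STAT3KO, and at 0.424 or less in the 5 DDC and DDC STAT3KO libraries. It rose against GFP by 6.615 ± 0.69 with IL-6 (log2, SE, adjusted p = 7.08e-05) and by 6.49 in IL-6 STAT3KO, and these 2 IL-6 groups overlapped. The phosphatases that act on JAKs and STATs, Ptpn1 and Ptpn2, rose with IL-6 (1.48 and 1.246) and fell in IL-6 STAT3KO against IL-6 (by 1.02 and 1.54). No PIAS gene was called in either comparison, where 25.9% and 26.4% of all genes were.

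Of 14 STAT3 target genes, 10 rose with IL-6 and none fell (median 3.16 against 0.04 over all genes, 13.7% of all genes called higher), and 13 fell in IL-6 STAT3KO against IL-6 (median -3.53, 13.3% called lower). Both counts held within 9 to 10 and 11 to 13 with each library left out in turn. Hp, the acute-phase haptoglobin, was at 1945 and 1915 CPM with GFP, at 44040, 44300 and 45280 with IL-6 and at 3776, 3477 and 4454 in IL-6 STAT3KO. Lbp, the lipopolysaccharide-binding protein, rose by 3.135 ± 0.27 with IL-6 (log2, SE, adjusted p = 2.57e-05) and fell by 2.70 ± 0.23 in IL-6 STAT3KO against IL-6 (adjusted p = 1.22e-05). Fgb, the fibrinogen beta chain, fell by 3.55 ± 0.29 in the same comparison (adjusted p = 1.12e-05). Against GFP, 1 of the 14 fell in IL-6 STAT3KO, Junb, an AP-1 subunit, by 1.78 (median -0.36, 0.865% of all genes called lower).

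Markers of other cells moved with some of these groups. The summed macrophage markers were 85.8 to 182 CPM with IL-6 and 118 to 282 in IL-6 STAT3KO, against 31.0 to 39.9 with GFP. Of 6 cholangiocyte markers 3 were in the table, nearly all of the signal being Spp1, and they summed to 1.66 to 3.44 CPM with GFP, 2115 to 10650 with IL-6, 3.96 to 41.5 in IL-6 STAT3KO and 487.5 to 539.5 with DDC. Neutrophil markers summed to 2.62 to 20.0 CPM with IL-6, 0.557 to 3.21 in IL-6 STAT3KO and 1.70 to 2.63 with DDC, against 0.128 to 0.206 with GFP. The 6 stellate cell markers summed to 225 to 385 CPM with DDC against 74.0 to 83.9 with GFP. Of 10 T cell markers 4 were in the table, and they summed to 11.1 to 37.0 CPM with IL-6 and at most 0.619 in the other groups. Nearly all of that signal with IL-6 was Cd28, at 10.7 to 36.8 CPM. In the IL-6 libraries Cd247, Lck and Thy1 were at most 0.158, 0.493 and 0.0624 CPM. The part of all these markers in the list counts was not tested.

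**Figure D4:**
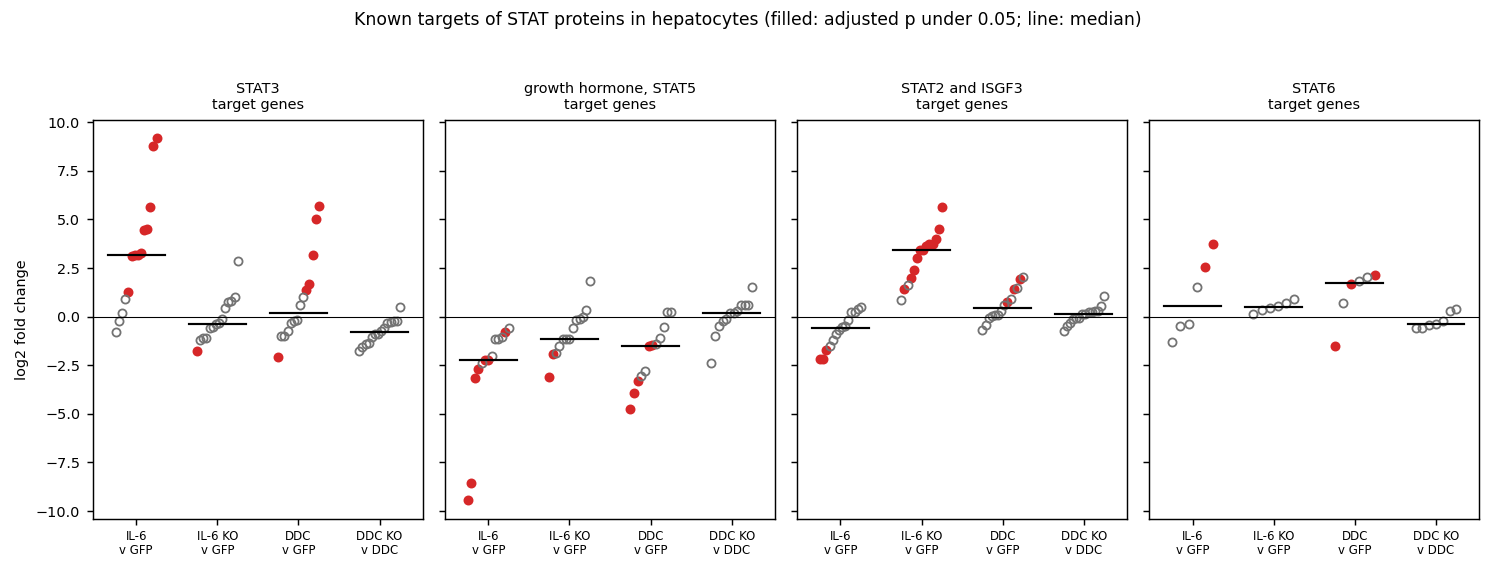
log2 fold changes of the genes in 4 target lists (STAT3, growth hormone and STAT5, STAT2 and ISGF3, STAT6) in 4 hepatocyte comparisons; each point is a gene, black lines are medians, and Hsd3b5 and Chil3, with 0 counts in a group, are left out. STAT3 targets lie high with IL-6, and ISGF3 genes lie high in IL-6 STAT3KO against GFP (median 3.43).

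In immune cells Stat3 had its highest mean in neutrophils, whose 2 libraries differed, at 371.5 and 169.5 CPM. It was at 215 and 219.5 in Ly6C-high monocytes, 155.5 and 166 in Ly6C-low monocytes, 135 and 107.5 in DDC macrophages, 69.1 and 124 in macrophages on normal diet and 117 and 73.7 in the libraries labelled T cells. The Ly6C-high libraries lay above the Ly6C-low libraries and these above the DDC macrophages, without overlap, while neutrophils overlapped Ly6C-high monocytes and the last 3 groups overlapped. In neutrophils against the other 4 DDC cell types Stat3 differed by 0.93 ± 0.38 (log2, SE, a 1.91-fold difference, edgeR adjusted p = 0.16), and DESeq2 gave an adjusted p of 0.00434. The edgeR value was 1.40 with an adjusted p of 0.0331 without Neutrophil replicate 2, and 0.36 with 0.708 without Neutrophil replicate 1.

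No member was called in any of the 6 immune comparisons by edgeR. The share of all genes called was 3.95% for neutrophils, 1.21% for the libraries labelled T cells and 0.695% for macrophages, each against the other DDC cell types, 2.18% for any difference among the 5 DDC cell types, 0.0252% for DDC against normal diet macrophages (7 genes, and 892 by DESeq2) and 0% for Ly6C-high against Ly6C-low monocytes, where 461 genes had an unadjusted p under 0.05 and DESeq2 called 28. The adjusted p-values for any difference among the 5 cell types were 0.384 for Stat4, 0.392 for Stat3, 0.47 for Stat6, 0.494 for Stat5b, 0.544 for Stat5a and 0.77 for Stat2. The biological coefficient of variation in this table was 1, against 0.313 in the hepatocyte table, so each interval is wide. With 2 libraries per group, ranges that do not overlap are weak evidence of a difference, and their share among all genes was not counted.

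Stat4 was the member with the clearest single-library difference. It was at 32.2 and 6.24 CPM in the libraries labelled T cells, 7.72 and 7.43 in Ly6C-low monocytes, 7.29 and 3.34 in neutrophils, 2.13 and 4.32 in macrophages on normal diet, 2.58 and 1.805 in DDC macrophages and 1.94 and 1.03 in Ly6C-high monocytes. The replicate 1 library labelled T cells stood alone, and the replicate 2 library lay below both Ly6C-low libraries. The libraries labelled T cells differed from the other DDC cells by 2.50 ± 0.84 (log2, SE, a 5.66-fold difference, edgeR adjusted p = 0.151), by DESeq2 with an adjusted p of 0.00578, and by edgeR without T replicate 2 by 3.28 (adjusted p = 0.019). Ly6C-high monocytes differed from Ly6C-low monocytes by -2.35 ± 1.29 (95% interval -5.06 to 0.37, adjusted p = 1), and their libraries did not overlap. Stat4 shares 1033 exonic bases with the annotated gene Gm28177.

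Stat6 was the most abundant member per kilobase in most immune libraries, a ranking that depends on the exon lengths used. By CPM, Stat3 was above Stat6 in every neutrophil, monocyte and T-labelled library, and Stat6 was above Stat3 in every macrophage library. Stat6 was at 265 and 65.5 CPM in neutrophils, 161 and 145 in Ly6C-high monocytes, 144 and 148 in DDC macrophages, 111 and 123 in Ly6C-low monocytes, 69.5 and 128 in macrophages on normal diet and 44.4 and 64.6 in the libraries labelled T cells. These last were below every other library and differed from the other DDC cells by -1.40 ± 0.51 (log2, SE, edgeR adjusted p = 0.175). DESeq2 gave an adjusted p of 0.0181, and edgeR without Neutrophil replicate 2 gave -1.54 with 0.0119. In DDC macrophages Stat6 held 49.9% to 50.1% of the summed CPM per kilobase of the 6 genes.

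Stat2 was at 69.35 and 76.4 CPM in DDC macrophages and at 23.7 and 46.1 in macrophages on normal diet, without overlap. The difference was 1.06 ± 0.55 (log2, SE, 95% interval -0.09 to 2.22, edgeR adjusted p = 0.46), in a comparison where the median of all genes was -0.615. The other groups were at 50.95 and 80.6 in Ly6C-high monocytes, 62.2 and 53.6 in Ly6C-low monocytes, 52.2 and 45.2 in the libraries labelled T cells and 37.7 and 43.2 in neutrophils. By group mean Stat2 was highest in DDC macrophages and lowest in macrophages on normal diet, but 1 Ly6C-high library lay above both DDC macrophage libraries, and the neutrophil libraries lay within the range of macrophages on normal diet.

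Stat5a was low in DDC macrophages, at 11.4 and 6.84 CPM, below macrophages on normal diet at 31.3 and 17.7 without overlap. It was at 18.5 and 49.6 in neutrophils, 30.5 and 37.4 in Ly6C-high monocytes, 48.5 and 8.54 in the libraries labelled T cells and 19.25 and 32.0 in Ly6C-low monocytes. DDC macrophages differed from the other DDC cells by -1.73 ± 0.73 (log2, SE, edgeR adjusted p = 0.548). They differed from macrophages on normal diet by -1.42 ± 0.83 (edgeR adjusted p = 0.464), where the median of all genes was -0.615. Stat5b was at 105 and 37.1 CPM in neutrophils, 70.2 and 50.8 in Ly6C-high monocytes, 44.3 and 46.15 in Ly6C-low monocytes, 24.5 and 45.4 in DDC macrophages, 20.5 and 38.2 in macrophages on normal diet and 21.8 and 25.8 in the libraries labelled T cells. Neutrophil replicate 1 held the highest Stat3, Stat5b and Stat6 levels of all 12 libraries.

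**Figure D5:**
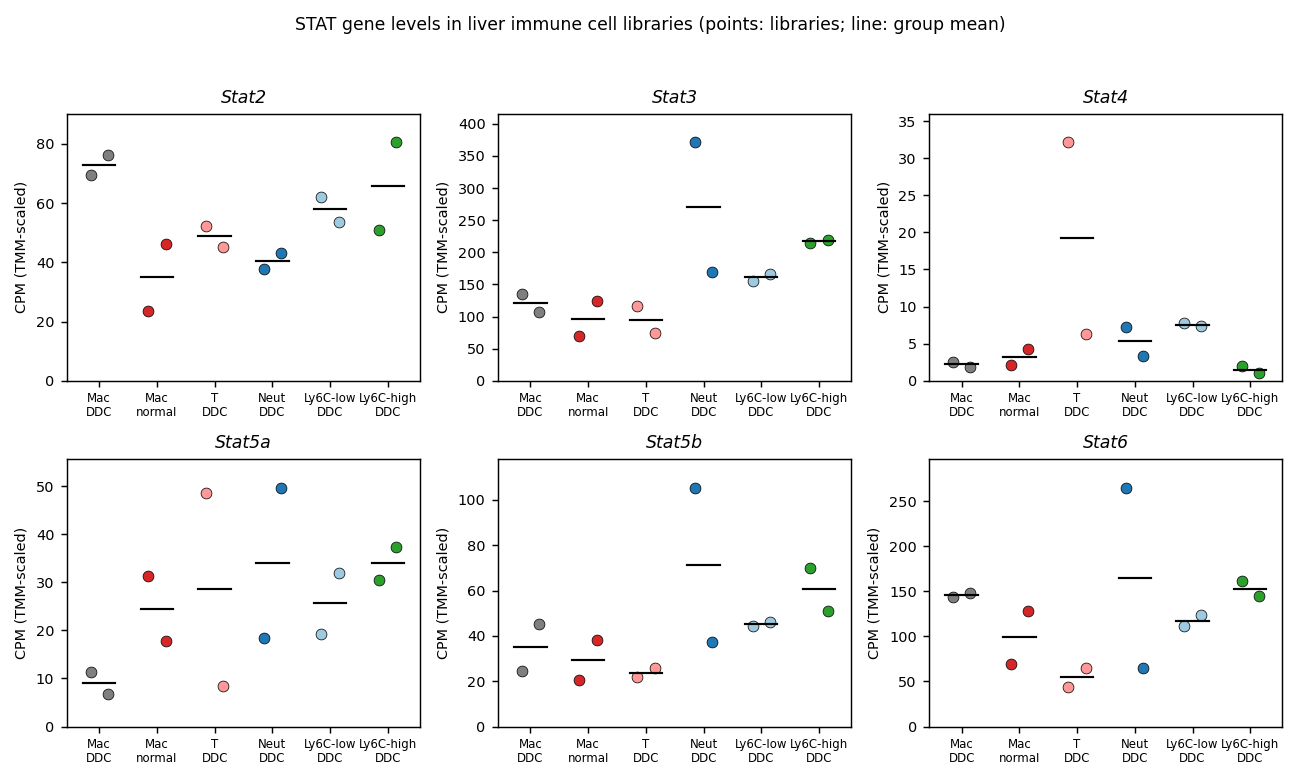
CPM of each of the 6 STAT genes (1 panel each, linear axis) in the 12 immune libraries, by sorted group; points are libraries and lines are group means. The spread between the 2 libraries of a group is largest in neutrophils for Stat3 (371.5 and 169.5 CPM) and Stat6 (265 and 65.5) and in the libraries labelled T cells for Stat4 (32.2 and 6.24).

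Few pathway genes outside the target lists were called in neutrophils: 1 of 4 Janus kinases, 1 of 8 SOCS genes, none of 9 PIAS and phosphatase genes and 1 of 9 tested STAT3 receptors. Csf3r, the G-CSF receptor that leads to STAT3 and a neutrophil marker, rose in neutrophils by 4.88 (log2), Jak2 by 1.85 and Socs3 by 2.25 against the other DDC cells. Socs3 was at 295.5 and 71.1 CPM in neutrophils and at 20.5 to 90.3 in the other DDC libraries, and was not called without Neutrophil replicate 1. Of 14 STAT3 target genes 5 rose in neutrophils (median 1.33 against 0.15 over all genes, 3.26% of all genes called higher), among them Pim1 by 2.97, Lcn2, also a granule gene of neutrophils, by 3.70 and Cebpd by 2.10, and 3 rose without Neutrophil replicate 1. Of 12 STAT6 target genes 2 fell (0.684% of all genes called lower), the lectin Clec10a by 3.78 and the chemokine Ccl24 by 1.95, and 1 of 8 STAT4 target genes rose, Il18rap, an IL-18 receptor chain, by 5.01. Of the 14 ISGF3 genes none was called in neutrophils (median -0.68 against 0.15 over all genes, 3.95% of all genes called in either direction). The numbers of ISGF3 and STAT6 target genes called lower rose without Neutrophil replicate 1, as did the number of all genes called. The number of STAT6 target genes called lower fell without Neutrophil replicate 2.

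In macrophages against the other DDC cells, 3 of 12 STAT6 target genes were called: Ccl24 and the mannose receptor Mrc1 rose by 3.26 and 1.70, and Chil3 fell by 6.80 (log2), with 0.566% of all genes called higher and 0.13% lower. Igf1, a growth hormone target in liver, rose by 2.79, and was at 911 and 941 CPM against 53.2 to 469 in the other DDC libraries; it was 1 of 12 growth hormone target genes called, and 2 were without the libraries labelled T cells. In those libraries, Fga, Fgb and Fgg of the STAT3 target list rose by 4.99, 3.51 and 3.04 and Junb fell by 2.47. Those 3 are the fibrinogen chain genes of hepatocytes, and hepatocyte markers summed to 2784 to 4564 CPM in the same libraries; their part was not tested.

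Il6, the gene of the ligand, was at 4.55 and 18.05 CPM in DDC macrophages, 6.12 and 13.04 in macrophages on normal diet, 2.93 and 1.55 in Ly6C-low monocytes, 1.19 and 2.17 in Ly6C-high monocytes and 0.401 and 0.493 in the libraries labelled T cells, and it had 0 counts in both neutrophil libraries. Every macrophage library was above every other immune library for Il6, and the macrophage ranges on the 2 diets overlapped. In DDC and DDC STAT3KO hepatocytes Il6 was at most 0.0445 CPM.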

How the data were processed

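Gene counts of 25 bulk libraries (perfused liver, cells sorted by flow cytometry, Trizol RNA, TruSeq libraries, per the labels' protocols) were deposited by the authors as 2 tables of raw counts. STAR, HTSeq, DESeq2 and mm10 are named in the submitters' processing notes; the sources used here give no versions or settings. The hepatocyte table held no gene with fewer than 10 counts in total, and its EGFP row, like that of the immune table, was left out of library sizes and tests.

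Groups were taken from the labels. Counts were tested in each table separately with edgeR 4.0.16 (R 4.3.3, limma 3.58.1): TMM scaling, filterByExpr by group, 1 term per group, quasi-likelihood F test, Benjamini-Hochberg adjustment over all genes tested, called at 0.05. The hepatocyte fit had 8 residual degrees of freedom and the immune fit 6, apart from those borrowed across genes. Standard errors were taken as the log2 fold change over the root of F and are approximate. Symbols, positions and exon lengths came from GENCODE M21 on GRCm38. Scripts were tested on simulated data.

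The members, gene lists and marker lists were chosen with earlier results of these data known. All 6 members were named in every comparison. From each list at most 4 called genes with the smallest adjusted p were named, or 2 where none was called, and a gene on 2 lists counts in both. A gene named in 1 comparison may be followed in the others, and Il6, Il6ra, Il6st and Socs3 may be named beside Stat3. Replicate numbers were not used to pair libraries in the main fit. Deviations correlated over 0.1 in 7 of 23 same-numbered and 7 of 44 differently numbered hepatocyte pairs. In immune cells they did so in 2 of 30 and 4 of 30. With 2 libraries per immune group the 2 sets mirror each other, so they cannot decide on pairing. Alternatives were median-of-ratios scaling, no filter, a replicate block, only the compared groups, DESeq2 1.42.0 and leaving out each library. Omitting IL-6 replicate 3, DDC STAT3KO replicate 3 or the libraries labelled T cells for lists was chosen after seeing the data.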

Additional observations from a re-analysis of the deposited data

Results flagged for a closer look

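For 18 of the pathway genes covered by the naming rule, the difference between STAT3KO and its control was not the same in the IL-6 setting as in the DDC setting, by an interaction term in the edgeR fit (adjusted p under 0.05). The values below are the log2 difference in the IL-6 setting minus that in the DDC setting. Genes of the STAT3 arm had negative values: Socs3 -4.26, Osmr -3.025, Lepr -5.265, Timp1 -6.88, Fgb -2.83, Hp -3.30 and Ptpn2 -1.99. For Socs3 the difference was -5.68 in the IL-6 setting and -1.415 in the DDC setting, and for Hp it was -3.51 and -0.21. Receptors and targets of other members also had negative values, Il13ra1 -1.78 and Klf4 -2.87.

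Genes of the interferon arm had positive values: Irf7 4.26, Ifit1 5.77, Ifit3 5.49, Oasl2 6.52 and Irf9 0.923. For Irf7 the difference was 4.22 in the IL-6 setting and -0.04 in the DDC setting. Growth hormone genes and Lifr had positive values as well: Slco1a1 6.795, Ghr 2.08, Igfals 1.88 and Lifr 2.39. For Slco1a1 the difference was 6.67 in the first and -0.13 in the second. Genotype and virus differed together in the IL-6 setting and only the virus differed in the DDC setting.

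EGFP counts, which enter no comparison, were far above the 34 and 35 of the GFP plasmid libraries in 3 libraries: 7795 in IL-6 replicate 3, 22357 in DDC replicate 1 and 27571 in DDC replicate 2. The other IL-6 libraries had 117 and 93, IL-6 STAT3KO 9 to 23 and DDC STAT3KO 0 or 1. By design the DDC mice had received the GFP virus and the DDC STAT3KO mice the Cre virus. The labels name no GFP virus or GFP plasmid for IL-6 replicate 3.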

How the results depend on the processing

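The number of STAT genes called stayed within 1.5 times the reported one in 132 recalculations and moved in 15, and no call of a STAT gene was lost. A fit to only the compared groups called 2 for IL-6 against GFP, 1 for IL-6 STAT3KO against GFP (Stat2 added in both) and 1 for DDC against GFP (Stat6, adjusted p 0.0367 by edgeR). DESeq2 called 1 for DDC against GFP (Stat6), 1 for DDC STAT3KO against DDC (Stat3), 2 for the libraries labelled T cells (Stat4 and Stat6), 2 for neutrophils (Stat3 and Stat5b, adjusted p 0.0386) and 3 for any difference among the cell types. Median-of-ratios scaling called 1 for neutrophils (Stat3, 1.216, adjusted p 0.0203). With 1 library left out, the counts ran from 1 to 2 for IL-6 against GFP, 0 to 1 for the interaction, the libraries labelled T cells and neutrophils, and 0 to 2 for any difference.

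Of the log2 values 30 changed sign, all of differences not called. With the replicate block, which moved no count of STAT genes, Stat3 in IL-6 STAT3KO against GFP was -0.038 and Stat2 in DDC STAT3KO against DDC 0.036. With 1 library left out, against GFP, Stat6 ran from -0.087 to 0.139 (IL-6), Stat5a from -0.066 to 0.932 and Stat5b from -0.454 to 0.168 (IL-6 STAT3KO), and Stat2 from -0.686 to 0.253 and Stat5b from -0.616 to 0.005 (DDC). In DDC STAT3KO against DDC, Stat2 ran from -0.467 to 0.483, Stat5a from -0.202 to 0.099 and Stat5b from -0.303 to 0.106, and in the interaction Stat2 from -0.312 to 0.652. In macrophages on DDC against normal diet Stat3 was -0.141 with median-of-ratios scaling and -0.142 with DESeq2, and Stat5b -0.215, -0.216 and, with no filter, -0.038. With 1 library left out they ran from -0.015 to 0.632 and from -0.408 to 0.598. The same range was -1.395 to 1.11 for Stat5a in the libraries labelled T cells, -0.375 to 0.654 for Stat4, -0.229 to 1.291 for Stat5a and -0.633 to 1.287 for Stat6 in neutrophils, and -0.229 to 0.491 for Stat2 in Ly6C-high against Ly6C-low monocytes. The cause was not tested.

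Median-of-ratios scaling moved the median of all genes in macrophages on DDC against normal diet from -0.615 to -1.122 and in neutrophils from 0.152 to 0.48. The number of all genes called moved more: from 448 to between 89 and 1142 for IL-6 STAT3KO against GFP, 2675 to between 607 and 4415 for DDC against GFP, 1187 to between 459 and 1874 for the interaction, 3719 to between 1651 and 4392 for IL-6 against GFP and 0 to between 0 and 19 for DDC STAT3KO against DDC. In immune cells it moved from 7 to between 17 and 892 for macrophages on DDC against normal diet, 0 to between 1 and 74 for the monocytes, 193 to between 144 and 1465 for macrophages, 1096 to between 635 and 5905 for neutrophils, 337 to between 114 and 2919 for the libraries labelled T cells and 605 to between 378 and 4319 for any difference. Groups of 2 libraries limit the precision, and a lone library is then taken to vary like the other groups.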

Other observations

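The genes whose levels followed each STAT gene most closely are given as a description. They were ranked by Pearson correlation of log2 CPM over the libraries of a table, which share groups, depth and composition, leaving out genes that averaged below 5 CPM and those without a proper name. Over the 13 hepatocyte libraries Stat3 was followed most closely by Itih4 (0.98), an acute-phase plasma protein, Fga (0.964), the fibrinogen alpha chain, and H6pd (0.962). Stat2 was followed by Nnmt (0.899), Rnf135 (0.879) and C1ra (0.871), Stat5a by Mta1 (0.859), Tlr2 (0.851) and Mical2 (0.849), Stat5b by Cdc14b (0.873), Pgghg (0.851) and Dnajc4 (0.851), and Stat6 by Prrc2b (0.917), Mroh1 (0.913) and Ezh1 (0.89). No STAT gene was among the 3 closest genes of another.

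Over the 12 immune libraries the closest genes were others. Stat3 was followed by Irak2 (0.963), a kinase of Toll-like receptor signalling, Fgr (0.945), a myeloid kinase, and Atf7ip (0.936). Stat5b was followed by Nr4a1 (0.94), Il17ra (0.939) and Asap1 (0.935), Stat6 by Sppl3 (0.955), Ap1m1 (0.954) and Plekho2 (0.949), Stat2 by Sephs1 (0.898), Idh3b (0.89) and Asl (0.872), Stat5a by Nsun4 (0.893), Pde5a (0.873) and Olfr1307 (0.863), and Stat4 by Fubp3 (0.837), Pan3 (0.83) and Cep120 (0.823). By Spearman's rank correlation, none of the 3 genes closest to Stat3 was among its 3 closest in either table, whereas all 3 were for Stat6 in hepatocytes.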
